A study of Mus musculus with 10 samples.

Results

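The circadian clock genes are described here in the left hemibrains of 10 mice. They were chosen by name and not by any measured value: Arntl (also called Bmal1), Clock, Per1, Per2, Per3, Cry1, Cry2, Dbp, Nr1d1 and Nr1d2, 10 of the 18539 genes that could be named on the array. All 10 genes were found, through 17 probes. A further 18 genes that act on the clock or are read out by it were taken as a second list.

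The mice were male C57BL/6J animals, housed singly from the age of 3 weeks and kept on one diet for the next 20 weeks, up to 5 months. The study set a diet enriched in n-3 PUFA from fish oil (FD) against a standard lab diet (SD). Each array held the hemibrain RNA of a different mouse in Cy-5 and another RNA in Cy-3, and the measure of each probe was log2 Cy-5/Cy-3, called its ratio below. The diet of a given array could not be settled, because the labels give FD for every Cy-5 sample, call the same samples controls in their descriptions, and differ from the methods, which name 4 FD and 3 SD arrays. No comparison of FD with SD was therefore made, and values are those of single arrays, named by animal, or the lowest, the median and the highest over the 10. Any effect of diet is part of these ranges and cannot be told apart from other differences between animals. The hour at which the animals were killed is not given in the sources used here.

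Arntl and Clock form the activator of the molecular clock. The pair binds E-boxes in the promoters of the Per and Cry genes, whose products return to block it, and this loop takes about a day to complete. The nuclear receptors Nr1d1 and Nr1d2 (also called Rev-erb alpha and beta) repress Arntl in a linked loop, and Dbp is a transcription factor that is itself a direct target of the activator. In most tissues of the mouse the Per, Nr1d and Dbp messages peak between day and dusk, Arntl and Clock peak between night and dawn, and Cry1 lags behind the Per genes. The clock of the suprachiasmatic nucleus sets the phase of the others, and a hemibrain holds that nucleus as a small part of a mixture of many regions.

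The 10 arrays came from 4 slides, 2 with 4 arrays and 2 with 1 array. The scanner software flags spots well above background, which is the background limit used below. In Cy-5, 68.2% to 76.9% of probes passed this limit on 9 arrays and 49.8% did on the array of C10-434. The markers of brain cells were far higher in Cy-5 than in Cy-3: the median log2 ratio of 9 neuron genes lay between 4.94 and 5.69, that of 7 astrocyte genes between 6.58 and 7.0 and that of 6 oligodendrocyte genes between 4.46 and 5.20, while 6 proliferation genes lay between -5.25 and -4.58. The Cy-5 channel thus carried brain markers as labelled, and the ratios go against the label that puts pooled hemibrain RNA in Cy-3. The methods of the study instead name a reference RNA from Agilent in Cy-3. A ratio above 0 says that a message was more abundant than in that Cy-3 RNA, whose make-up was not settled. In tissue of this kind, fewer cells of a type and less RNA per cell cannot be told apart.

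Arntl, and Clock by the brightest of its 3 probes, passed the background limit in both dyes on every array. The other Clock probes missed it in Cy-5 on some arrays. Arntl had a log2 ratio of 0.44 on C10-415, a median of 0.91 and 1.34 on C10-437. C10-415 stood lowest, the other arrays lay between 0.74 and 1.34, and all 10 were above 0. Clock, read from its brightest probe, was close to the Cy-3 level, with -0.20 on C10-413, a median of 0.00 and 0.60 on C10-423. It was above 0 on 5 arrays and below 0 on 5, and C10-423 was its high array on each of its 3 probes.

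Among the repressors, the Per genes differed in how far they varied. Per1 had a log2 ratio of 1.49 on C10-435, a median of 1.94 and 2.23 on C10-416. Per2 had 2.40 on C10-435, a median of 2.63 and 2.81 on C10-424, a range of 0.40 that was the narrowest of the 10 genes. C10-435 was lowest for both. Per3, whose product has a lesser part in the loop, had -0.72 on C10-415, a median of -0.04 and 0.26 on C10-434, and its Cy-5 signal was low, between 104 and 339.

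Cry1 and Cry2 encode the cryptochromes, the strongest repressors of the activator. Cry1 had a log2 ratio of -0.20 on C10-415, a median of 0.93 and 1.32 on C10-413. The array of C10-415 stood apart, since the other 9 lay between 0.86 and 1.32. Its Cy-5 signal was 166 on that array against 179 to 623 on the others, and the lowest of these, C10-434, was the only array where this probe fell short of the background limit in Cy-5. Cry2 had 2.37 on C10-423, a median of 2.83 and 3.28 on C10-416 over 9 arrays. Its spot on C10-413 carried an outlier flag and was left out.

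The nuclear receptors of the linked loop varied most. Nr1d1 had a log2 ratio of -0.40 on C10-423, a median of 0.44 and 1.72 on C10-413, a range of 2.13 that corresponds to 4.36-fold. Values spread over the whole range, with 1.29 on C10-424 and 1.09 on C10-416 at the upper end and -0.36 on C10-434 and -0.17 on C10-435 at the lower. Nr1d2 had -0.03 on C10-415, a median of 0.78 and 1.63 on C10-423, a range of 1.65. C10-423 was thus the lowest array for Nr1d1 and the highest for its relative Nr1d2.

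Dbp was the output gene of the set and gave Cy-5 signals between 41565 and 125048, with no saturated spot on any array. Its log2 ratio was 0.39 on C10-425, a median of 0.87 and 1.5 on C10-413. C10-413 and C10-434 (1.46) stood together at the top, C10-424, C10-415 and C10-423 lay between 1.08 and 1.11, and the other 5 arrays lay between 0.39 and 0.67. Its range of 1.11 corresponds to 2.16-fold.

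**Figure D1:**
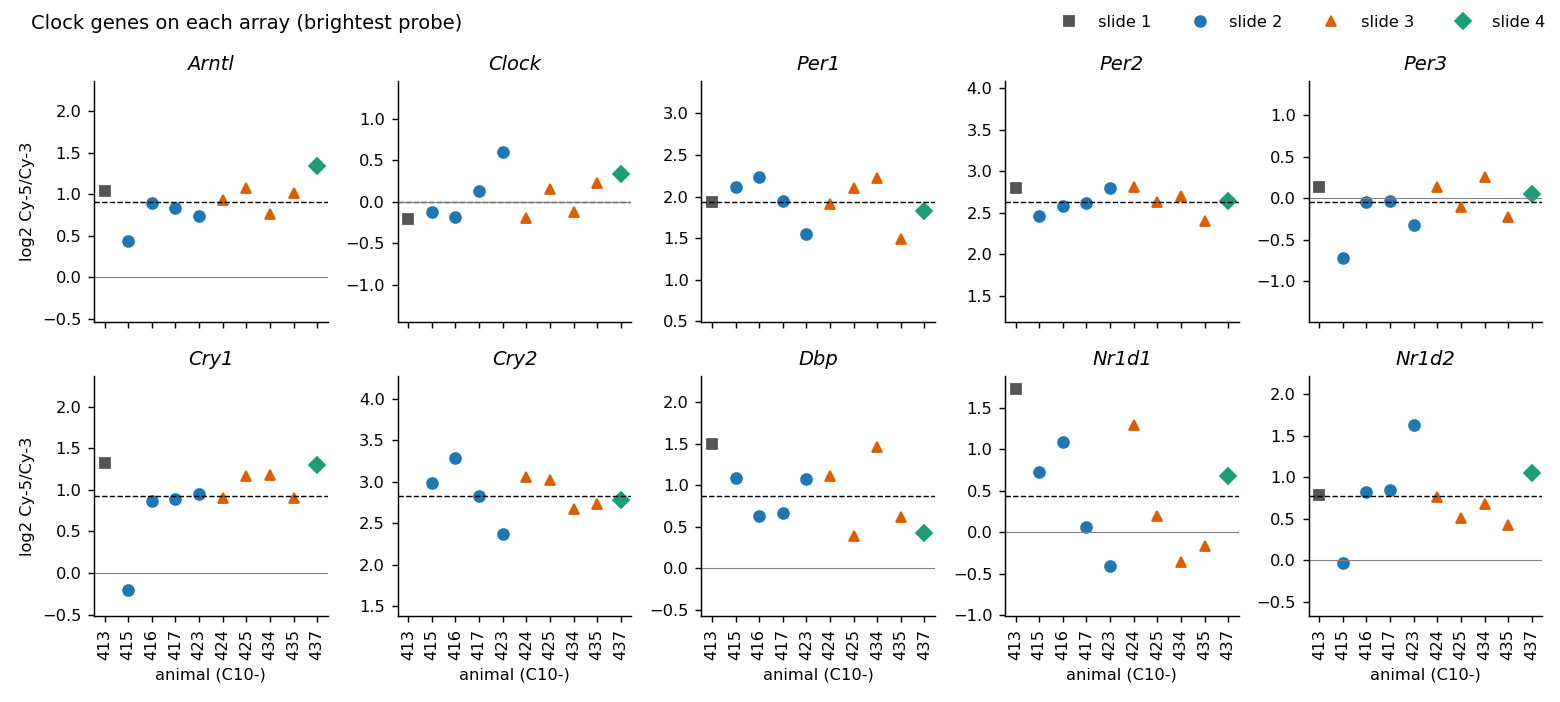
Log2 Cy-5/Cy-3 (vertical axis) of each clock gene on each of the 10 arrays (horizontal axis, by animal), from the brightest probe of the gene. Each point is 1 array, its color and shape give the slide, the dashed line is the median and the grey line is 0. All panels span the same height, so that Nr1d1 shows the widest range (2.13) and Per2 the narrowest (0.40), and C10-415 is the low point of Arntl, Per3, Cry1 and Nr1d2.

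Of the 10 genes, 9 had a median ratio above 0 (90%), and 5 were above 0 on every array with a value. Over the 10533 genes that passed the background limit in both dyes and had a value on every array, 54.8% had a median above 0 and 41.9% were above 0 on every array. The sign of the Clock median, at 0.00, turned under other normalizations, the Nr1d1 median was 0.68 without C10-434 and 0.21 without loess, and the Per3 median was -0.23 without loess. The median range over the arrays was 0.95 for the clock genes and 0.79 for those 10533 genes. Cry1, which missed the Cy-5 limit on C10-434, and Cry2, which lacked a value on C10-413, are not among the 10533, but are counted with the clock genes.

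The low values of C10-415 recurred in several genes. This array was the lowest for 4 of the 10 clock genes (Arntl, Per3, Cry1 and Nr1d2) and the highest for none. Of the 10533 genes that passed the background limit in both dyes with a value on every array, 13.1% were lowest and 17.9% highest on it. C10-415 was singled out after its values were seen. C10-413 was the highest for Cry1, Dbp and Nr1d1 and the lowest for Clock, with no value for Cry2. Of the 10533 genes, 12.5% were highest and 20.0% lowest on C10-413. On C10-415, 68.2% of probes passed the background limit in Cy-5, the lowest share after C10-434. The part of this share in these values was not tested.

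The Cy-3 channel held the same RNA on all arrays by both accounts of the study, so its range over the arrays is that of a repeated measurement. Each dye was scaled by the 75th percentile of its array for this comparison. All 10 clock genes had a wider range in Cy-5 than in Cy-3. For Nr1d1 the range of the log2 level was 2.32 in Cy-5 and 0.16 in Cy-3, for Nr1d2 1.75 and 0.14, for Dbp 1.23 and 0.19, and for Arntl 1.01 and 0.18. The differences between arrays in these 4 genes were therefore much larger in the hemibrain channel than in the shared one. Taken relative to the Cy-3 range, the Cy-5 range was smallest for Per2 (0.81 and 0.37) and Per3 (1.52 and 0.68). The wider Cy-5 range was common to the array, as 93.9% of the 10533 genes had it, with a median range of 0.87 in Cy-5 and 0.23 in Cy-3. The medians of the clock genes were 1.16 and 0.21.

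**Figure D2:**
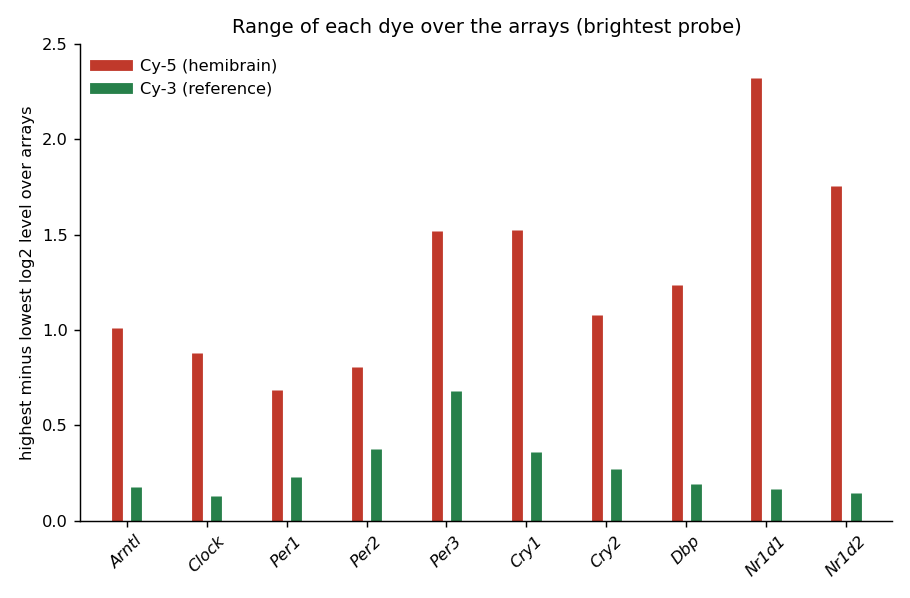
Highest minus lowest log2 level over the arrays (vertical axis) of each clock gene in Cy-5 (red, hemibrain RNA) and in Cy-3 (green, the RNA shared by all arrays), each dye scaled by the 75th percentile of its array. Bars start at 0, and every Cy-5 bar is taller than its Cy-3 bar, from 0.69 against 0.23 for Per1 to 2.32 against 0.16 for Nr1d1.

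For 5 genes more than 1 probe was present and the probes could be set against each other. The 2 probes of Cry2 varied together (r = 0.83 over 9 arrays), although their log2 ratios lay 2.12 apart in the median. Of the 3 Nr1d1 probes, the brightest and A_52_P130952 varied together (r = 0.89 over 10 arrays), with C10-413 and C10-424 at the top and C10-423 and C10-434 at the bottom of both, but the second had a range of 0.77 in place of 2.13. The third, A_52_P130961, had a range of 0.48 and did not follow the brightest (r = -0.06). These 2 dimmer probes also varied in Cy-3, by 1.07 and 2.06 on the log2 scale, as did the dimmer Per2 probe A_52_P536869 by 1.59, so that in them the shared RNA was not measured alike on all arrays. This spread followed the slide. In each of these probes, all arrays on the slide of C10-424 read higher in both dyes than all arrays on the slide of C10-415. For A_52_P130961 the scaled Cy-3 level was -1.64 to -1.31 on the former and -3.37 to -3.17 on the latter. The ratio takes off a shift that both dyes share.

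Clock had 3 probes. The brightest varied with both others (r = 0.74 and r = 0.74 over 10 arrays), while the median ratio of A_52_P161365 was -1.92, and it passed the background limit in Cy-5 on 7 arrays. The 2 probes of Per2 lay 2.25 apart in the median and did not follow each other (r = -0.45 over 10 arrays). The 2 Cry1 probes had like medians, 0.93 and 1.05, yet r between them was 0.19. On C10-415 the second Cry1 probe read 0.97, inside the span of its other arrays (0.51 to 1.67), so the low Cry1 value of that animal was seen in 1 of its 2 probes. Arntl, Per1, Per3, Dbp and Nr1d2 had a single probe each and no such check.

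**Figure D3:**
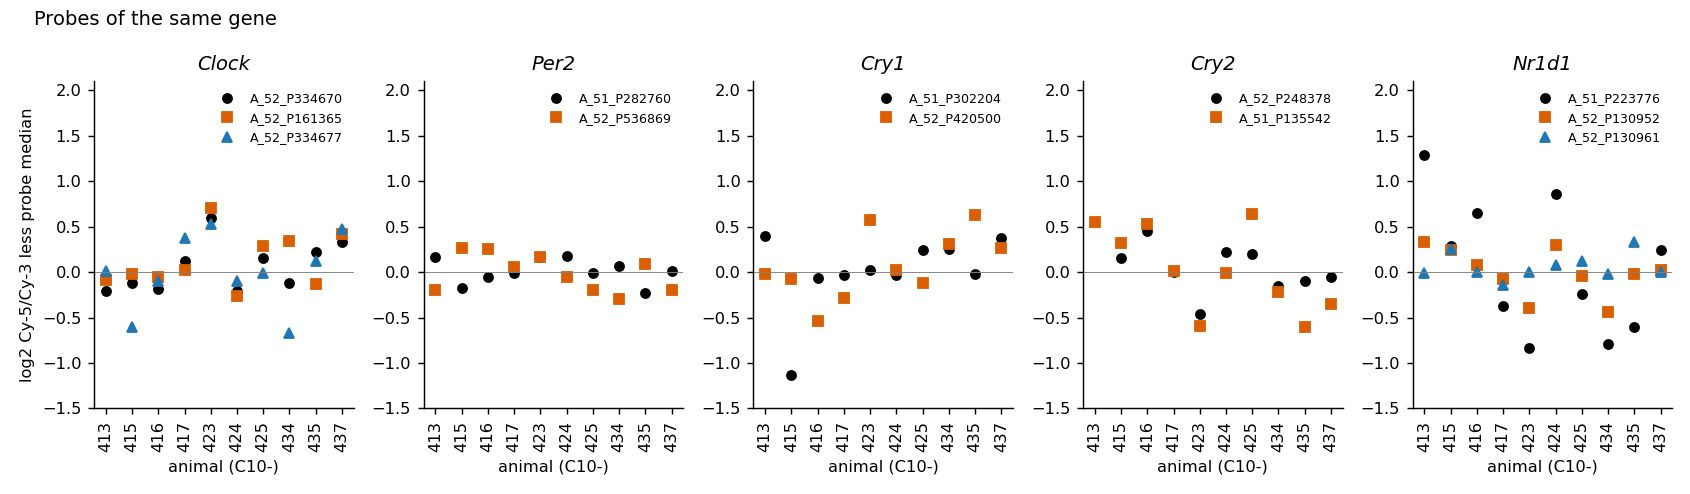
Log2 ratio less the probe's own median (vertical axis) on each array (horizontal axis, by animal) for the 5 clock genes with more than 1 probe. Black points are the brightest probe and colored points the others. The Cry2 probes follow each other (r = 0.83), the Cry1 probes part on C10-415 (-0.20 and 0.97 before the median was taken off), and the 3 Nr1d1 probes have ranges of 2.13, 0.77 and 0.48.

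The slide was the technical batch that could be tested, between the slide of C10-415, C10-416, C10-417 and C10-423 and the slide of C10-424, C10-425, C10-434 and C10-435. Slide and animal cannot be told apart in it. By limma on the ratio with Benjamini-Hochberg adjustment, 30 of 40299 probes had an adjusted p under 0.05 (0.0744%), and none of the 17 clock gene probes did. With 4 arrays on each slide, a probe that was not called may still differ. The levels of single dyes were not tested between the slides. No clock gene probe had an unadjusted p under 0.05 by limma, against 3998 of the 40299 probes. The smallest was that of the dimmer Per2 probe, whose log2 ratio was 0.30 lower on the second slide (difference -0.30 ± 0.14, SE, p = 0.0603 and adjusted p = 0.542 by limma). For the brightest probe of Nr1d1 the difference was -0.13 ± 0.43 (SE, adjusted p = 0.981 by limma), and its range was 1.49 among the 4 arrays of the first slide and 1.65 among those of the second. For Dbp it was 0.03 ± 0.25 (SE, adjusted p = 0.992 by limma).

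The promoter windows are shown for E-boxes, which the activator binds, and for D-boxes, which Dbp binds. RefSeq promoters (build GRCm38.p6) were at hand for 9 of the 10 genes, all but Per2. In the 250 bases before the start, the E-box CACGTG was found in Per1 and Cry1, against 6.86% of 27025 genes. The variant E-box CACGTT was found on either strand in Cry1, Cry2 and Nr1d1, against 4.50% of genes, and the D-box TTATGTAA or TTACGTAA, to which Dbp and its relatives bind, in Per3, against 1.1%. The element of the Nr1d and Ror receptors, searched as TAGGTCA or TGGGTCA on both strands, was found in none of the 9, against 6.15% of genes. A match of letters is a description of the sequence, and no match says only that these letters are not in this window. The windows below are on the strand of the gene, with the element in capitals. AACGTG is CACGTT read on the other strand. They lie at chr11:69098771-69098800 (plus strand) for Per1, chr10:85185097-85185126 (minus strand) for the Cry1 E-box, chr10:85185116-85185145 (minus strand) for the Cry1 variant, chr2:92434218-92434247 (minus strand) for Cry2, chr11:98775388-98775417 (minus strand) for Nr1d1 and, for the 2 D-boxes of Per3, chr4:151044852-151044881 and chr4:151044805-151044834 (minus strand).
Per1 E-box: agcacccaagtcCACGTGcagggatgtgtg
Cry1 E-box: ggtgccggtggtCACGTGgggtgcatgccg
Cry1 variant E-box: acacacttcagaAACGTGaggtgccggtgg
Cry2 variant E-box: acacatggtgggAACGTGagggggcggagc
Nr1d1 variant E-box: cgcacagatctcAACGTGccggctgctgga
Per3 first D-box: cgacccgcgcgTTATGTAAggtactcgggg
Per3 second D-box: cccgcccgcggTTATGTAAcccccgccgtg

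Whether clock genes of like phase varied together between animals was asked of the 45 pairs of clock genes over the 10 arrays, each gene by its brightest probe. No pair had an adjusted p under 0.05 (two-sided permutation test of Pearson r with Benjamini-Hochberg adjustment over the 45 pairs), and 7 had an unadjusted p under 0.05. An absolute r of 0.632, the value that an unadjusted p of 0.05 takes over 10 arrays, was reached by 8 of the 45 pairs (17.8%), 3 of them pairs with Cry2 that rest on 9 arrays. Among all pairs of the 10533 genes, 19% reached it, so the share among clock genes was near that background. This share is well above the nominal 0.05. The p-values and adjusted p-values of pairs, here and below, do not allow for that and read as too small. The median absolute r was 0.27 for the clock genes and 0.37 for all pairs.

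By phase, the 15 pairs within the day-to-dusk genes (Per1, Per2, Per3, Dbp, Nr1d1 and Nr1d2) had a median r of 0.19, and 13 of them were positive. Both depended on the setting: 9 were positive with median centring, and 10 in Cy-5 alone, without C10-434 or without C10-435, while the median r was 0.03 without C10-413, 0.12 without C10-435 and 0.33 without C10-434. The exceptions were Per1 with Nr1d2 (r = -0.41 over 10 arrays) and Nr1d1 with Nr1d2 (r = -0.18 over 10 arrays). The 3 pairs within the night-to-dawn genes (Arntl, Clock and Cry1) were all positive, with a median of 0.22. The 18 pairs across both groups had a median of -0.01, with 8 positive and 10 negative. The 9 pairs with Cry2, which was placed in neither group, had a median of -0.23. Over all pairs of the 10533 genes the median r was 0.04 and 52.9% were positive. Pairs share genes and arrays, so these counts are a description.

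Arntl and Dbp, whose peaks lie about opposite each other in the daily cycle, had r = -0.47 (adjusted p = 0.476 by the permutation test over 10 arrays), and rho = -0.47 (adjusted p = 0.54 by the same test of ranks). The r was between -0.69 and -0.30 when each array was left out in turn. In Cy-5 alone it was -0.57, in Cy-3 alone -0.09 and with slide means removed, over 8 arrays, -0.78. Arntl with Nr1d1, its repressor, had r = 0.21 (adjusted p = 0.812 by the permutation test over 10 arrays). Dbp with Nr1d1, both targets of the activator, had r = 0.19 (adjusted p = 0.812 by the permutation test over 10 arrays), a sign that rested on C10-413: r was -0.18 without it, -0.11 with slide means removed and 0.48 without C10-434.

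The 5 pairs of largest absolute r were these. Per3 and Cry1 had r = 0.84 (permutation p = 0.00977, adjusted p = 0.147) and rho = 0.56 (permutation p = 0.0961, adjusted p = 0.54), and r was 0.41 without C10-415 and C10-434. Arntl and Cry1 had r = 0.79 (permutation p = 0.00894, adjusted p = 0.147) and rho = 0.59 (permutation p = 0.0807, adjusted p = 0.54), and r was 0.32 without C10-415 and C10-437. Both pairs rested on C10-415, where all 3 genes were lowest: without this array alone r was 0.47 and 0.56. Without loess, Arntl with Cry1 passed the threshold (r = 0.86, adjusted p = 0.0157 by the permutation test). With the second Cry1 probe, r was -0.07 for Per3 and 0.10 for Arntl.

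Cry2 and Nr1d1 had r = 0.81 over 9 arrays (exact permutation p = 0.00675, adjusted p = 0.147) and rho = 0.90 (exact permutation p = 0.00203, adjusted p = 0.0913). This pair did not rest on 1 array, as r was between 0.75 and 0.85 with each array left out, and 0.73 without C10-416 and C10-423. With the other probes of both genes r was between -0.10 and 0.74, the low values being those of the Nr1d1 probe A_52_P130961. With slide means removed, over the 8 arrays of both slides, r was 0.86. In Cy-3 alone it was 0.38. In the authors' table, which keeps the flagged spot of C10-413, the pair passed the threshold (r = 0.85, adjusted p = 0.0416 by the permutation test over 10 arrays).

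Clock with Cry2 had r = -0.76 over 9 arrays (exact permutation p = 0.0164, adjusted p = 0.185) and rho = -0.73 (exact permutation p = 0.0311, adjusted p = 0.467), and r was -0.48 without C10-423 and C10-424. Clock with Per1 had r = -0.71 (permutation p = 0.0212, adjusted p = 0.191) and rho = -0.52 (permutation p = 0.132, adjusted p = 0.54), and r was -0.54 without C10-423 and C10-437. Clock was highest on C10-423, where Cry2 was lowest and Per1 second lowest, and without that array r was -0.53 and -0.57. With the background floor r was -0.16 for Clock with Cry2 and -0.38 for Clock with Per1. With the other probes of both genes r was between -0.69 and -0.37 for Clock with Cry2. For Clock with Per1 it was -0.18 with the Clock probe A_52_P161365 and -0.68 with A_52_P334677. Within single slides no r was computed, as 4 arrays are too few. With slide means removed, r was 0.75 for Per3 with Cry1, 0.71 for Arntl with Cry1 and -0.78 for each of the 2 Clock pairs.

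**Figure D4:**
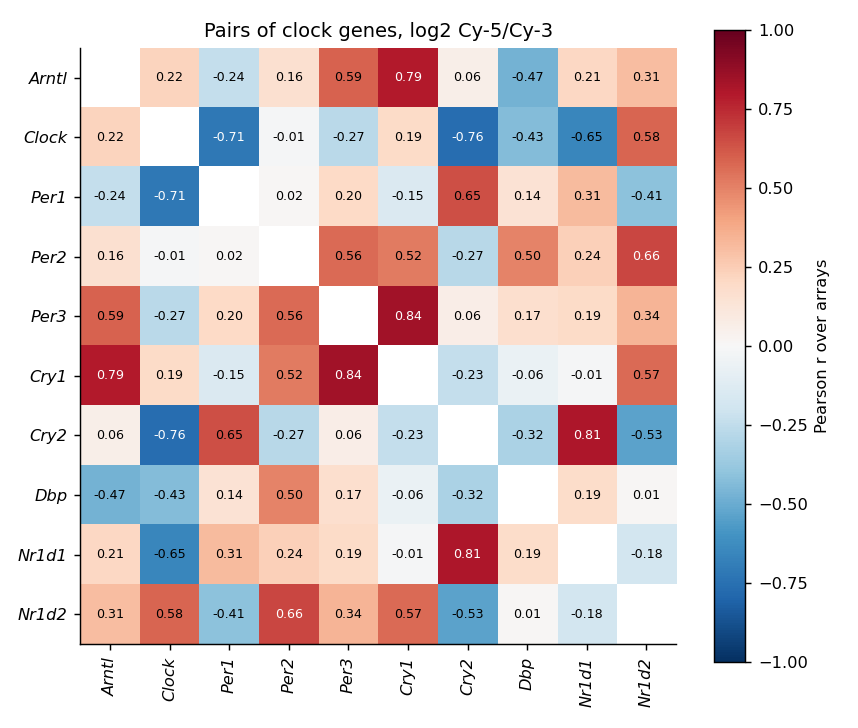
Pearson r of the log2 ratio over the arrays for each pair of the 10 clock genes (both axes), from blue (-1) through white (0) to red (1), with r written in each cell. Pairs with Cry2 rest on 9 arrays and the others on 10. The strongest cells are Per3 with Cry1 (0.84), Cry2 with Nr1d1 (0.81) and Arntl with Cry1 (0.79). Genes keep the order of the list, so Cry1 and Cry2 stand between the Per genes and the other day-to-dusk genes.

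The genes whose ratio followed Dbp and Arntl most closely were sought among the 10532 others that passed the background limit in both dyes throughout. For Dbp the closest were Mepe (r = 0.89), Mocs1 (0.83), Adck1 (0.82), Med29 (0.81) and Spats2l (0.79), and the most opposed were Ugt2b34 (r = -0.91), Ostc (-0.88), Mrrf (-0.85), Phlda1 (-0.82) and Mtpn (-0.81). For Arntl the closest were Prkci (r = 0.93), Rhot1 (0.92), Stt3b (0.91), Poglut1 (0.90) and Clns1a (0.89), and the most opposed were Wdr31 (r = -0.96), Gtf2ird2 (-0.96), Paqr5 (-0.95), Dus3l (-0.93) and Odf4 (-0.93). No clock gene of either list was among them. These r are over 10 arrays that share their Cy-3 RNA and scanner, and they are the extremes of 10532 values. Without C10-415 the r of the 10 genes named for Arntl were between 0.79 and 0.86 and between -0.93 and -0.86.

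All 18 other clock genes had a probe, and 13 passed the background limit in Cy-5 throughout. Of these 13, 9 had a median ratio above 0 and 4 below, and their ranges lay between 0.54 and 1.90 with a median of 0.998. The limit was set in Cy-5 alone, which favours a ratio above 0. Over all 18 genes, 11 had a median above 0 and 7 below. For genes under this Cy-5 limit no share over the whole array is given. Among these 13 the highest medians were those of Hlf, a relative of Dbp (4.21, 4.42 and 4.75 as lowest, median and highest over 8 arrays), Npas2, which can take the place of Clock in the forebrain (1.41, 2.54 and 3.30), and Usp2, a deubiquitinase under clock control (1.76, 2.23 and 2.82). Npas2 passed the background limit in Cy-3 on 7 arrays, and its level had a range of 1.68 in Cy-5 and of 1.76 in Cy-3. The lowest were those of Timeless (-3.81, -3.37 and -2.77), which acts in DNA replication, Nfil3, which competes with Dbp for D-boxes (-1.47, -0.93 and -0.72), and Bhlhe40, a repressor of E-boxes (-0.64, -0.28 and -0.09).

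Between the slides, 16 of the 18 genes could be tested and none had an adjusted p under 0.05 by limma (smallest 0.444), nor were any of the 17 clock gene probes called.

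**Figure D5:**
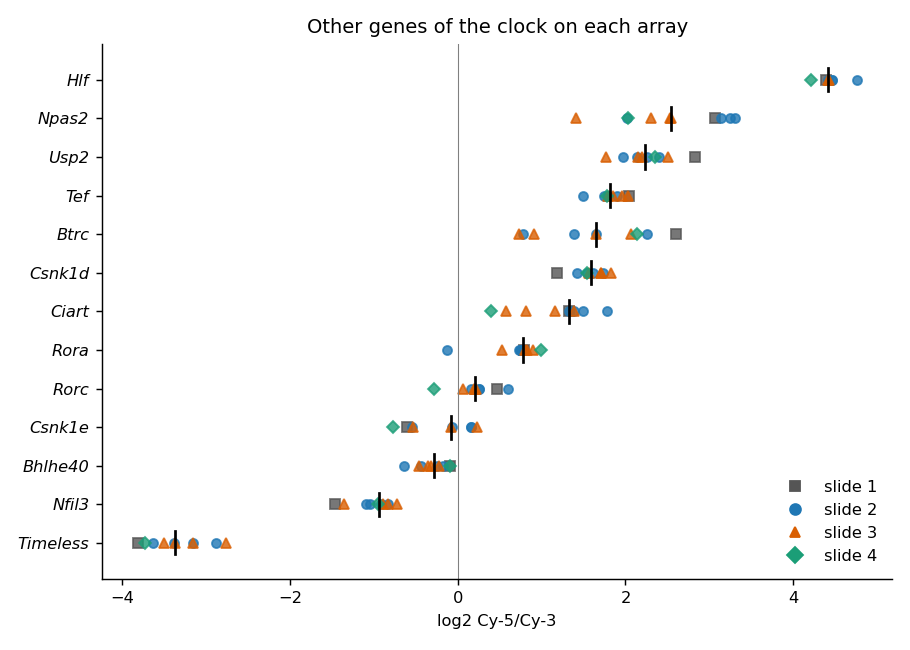
Log2 Cy-5/Cy-3 (horizontal axis) of the 13 other clock genes that passed the background limit in Cy-5 throughout (vertical axis, by median). Each point is 1 array, its color and shape give the slide, and the black bar is the median. Hlf is highest (4.42) and Timeless lowest (-3.37), and Npas2 has the widest range of the ratio (1.90). The level of Npas2 had a range of 1.68 in Cy-5 and of 1.76 in Cy-3, where it passed the background limit on 7 arrays.

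Lists of genes that respond within hours to activity and to glucocorticoids, which also follow the day, were read on the same arrays after the median of each gene was taken off. The median of the 10 immediate early genes then lay between -0.39 (C10-423) and 0.39 (C10-434), and that of the 7 glucocorticoid-induced genes between -0.22 (C10-437) and 0.21 (C10-415), with Junb in the first list and Sgk1 in the second each without a value on 3 arrays. The part of these lists in the clock gene values was not tested. Of the 7 genes enriched in the suprachiasmatic nucleus, 6 were found and 5 passed the background limit in Cy-5 throughout, but 3 of the 6 missed it in Cy-3 on some arrays, and no ratio is given for this list.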

How the data were processed

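Hemibrain RNA was measured on 10 dual dye arrays, 1 per mouse. The authors deposited the scanner output of each array (Feature Extraction 10.10.1.1), whose signals are intensities on a linear scale, processed by that software for background and dye, and whose deposited log ratio is on the log10 scale, Cy-5 against Cy-3. A deposited table of 1 value per probe and array held log2 ratios that matched the processed signals (r = 1.000 on every array), with values also for spots that the scanner files flag. The array design of the files is on build mm9.

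From the processed signals, log2 Cy-5/Cy-3 was taken, loess was run within each array (span 0.3), control spots and outlier-flagged spots were left out, and spots of a probe were averaged. A probe passed the background limit on an array if 0.5 or more of its spots had the scanner's flag for it. Of 41174 probes, 27198 (66.1%) matched 1 of 18539 genes through RefSeq transcripts (GRCm38.p6, used for names and promoters). A gene was read from its probe of highest mean brightness. Each array had 45018 spots, and the number of arrays limits the precision. As all arrays are unassigned to a diet, tests were limited to the slide comparison (limma 3.58.1, R 4.3.3) and to pairs of genes (permutation of Pearson r and Spearman rho, 100000 resamples over 10 arrays, all orders over 9 or fewer, two-sided). Both were tested on simulated data. Other software was Python 3.11.15 with numpy 2.4.6, pandas 2.3.3 and scipy 1.17.1.

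The genes named are all 10 clock genes with every probe, the 3 other clock genes of highest and the 3 of lowest median among those that passed the background limit in Cy-5 on all arrays, the 5 pairs of largest absolute r, and the 5 genes most like and the 5 most opposed to Dbp and to Arntl. Junb and Sgk1 are named for their missing values. The clock genes and the lists were chosen with earlier results of these data known. Another gene of the list of other clock genes is not reported here. Alternatives were no loess, median centring, background subtraction (values under 0.5 set to 0.5, offset 50), the authors' table, all probes of a gene, spots well above background, each dye alone, slide means removed, and leaving out arrays.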

Additional observations from a re-analysis of the deposited data

Results flagged for a closer look

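Of 17 clock gene probes examined for a single array far from the rest, 1 had such an array. The brightest Cry1 probe read -0.20 on C10-415, while the other 9 arrays lay between 0.86 and 1.32, and the gap took up 0.699 of the whole range against a limit of 0.466. Chance gives a gap past this limit in about 1 of 20 sets of values, and the gap seen here was well past it. The second Cry1 probe read 0.97 on the same array.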

How the results depend on the processing

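The median log2 ratio of Clock, 0.00, turned to -0.26 without loess and in the authors' table, to -0.24 with median centring, to -0.028 with the background floor and to -0.70 over all its probes. No other clock gene changed the sign of its median under the alternatives run, but the Nr1d1 median, 0.44, was 0.20 with median centring, 0.21 without loess, 0.28 with the background floor and 0.68 without C10-434, the Per3 median, -0.04, was -0.23 without loess and with median centring, the Cry1 median, 0.93, was 0.53 with the floor, and over all probes the Per2 median, 2.63, was 1.56 and the Cry2 median, 2.83, was 1.80. Between the slides, 30 probes were called, 1 with the background floor, 92 among the 19482 probes that passed the background limit in Cy-5, 8 without C10-415, 5 without C10-423, and 0 without any other of the 8 arrays, with no clock gene probe called under any of these. Among the pairs of clock genes, 0 were called, but 1 without loess (Arntl with Cry1, r = 0.86, adjusted p = 0.0157 by permutation), 1 with median centring (the same pair, r = 0.85, adjusted p = 0.0346 by permutation), 2 in the authors' table (the same pair, and Cry2 with Nr1d1 over 10 arrays, r = 0.85, adjusted p = 0.0416 by permutation) and 1 in Cy-5 alone (Per2 with Cry1, r = 0.92, adjusted p = 0.0414 by permutation). The table holds a Cry2 value for C10-413 (2.99), whose spot is flagged. In Cy-3 alone, r turned for Per3 with Cry1 (-0.28), Arntl with Cry1 (-0.41), Clock with Cry2 (0.12) and Clock with Per1 (0.35). The cause was not tested. No pair was called with any array left out. The alternatives for the ranges of each dye, for the other clock genes and for the pairs by probe were chosen after seeing the data. Signal over background limits 1 probe each of Cry1 and Cry2 and 2 of Clock, which missed the background limit in Cy-5 on C10-434 and, for A_52_P161365, on C10-416 and C10-424. No paired analysis was possible because no array is assigned to a group.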
